A study of Rattus norvegicus with 10 samples.

Results

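The genes described here make, modify, store and release fatty acids in the cell, and they were measured in pancreatic islets of rats after 10 days on either of 2 diets. The list has 34 members, chosen by name for their biochemical role: 7 of fatty acid synthesis, 11 of desaturation and elongation, 10 of activation and esterification to triglyceride, and 6 of lipolysis. A gene was read from its brightest probeset on the array, that is, the one with the highest mean over 10 arrays among probesets annotated to that gene alone. Of the 34 members, 32 had such a probeset, among 14217 genes on the array, and 27 were bright enough to be tested, among 10301 genes tested. Elovl7 had no probeset under its symbol, and Tecr had only 1, shared with another symbol, so neither was read.

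The islets came from adult male Wistar rats, 7 weeks old and weighing 225 to 250.0 g, kept 1 to a cage. The standard group received chow with 8% of calories from fat, and the cafeteria group a cafeteria diet with 66% of calories from fat, for 10 days in both cases. Each group had 5 arrays, hybridised with independent islet samples, and the design text calls the groups lean and obese. In every sample the title, source name and description (3 fields) give 1 diet and the diet characteristic (1 field) gives the other. Groups here follow the 3 fields, and if the characteristic were right every sign below would turn. The comparison asks which islet transcripts differ between the diets at this time.

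Cells build fatty acids in the cytosol from citrate that leaves the mitochondrion. Citrate is split to acetyl-CoA, carboxylated to malonyl-CoA, and assembled with NADPH into palmitate, which is then elongated and desaturated. Activated chains are joined to a glycerol backbone to make triglyceride, which lipases take apart again at the lipid droplet. Beta cells normally hold little triglyceride, but citrate export, malonyl-CoA and lipase products have long been studied there as signals that accompany glucose-stimulated insulin secretion.

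Values are the deposited MAS5 signals of the Affymetrix Rat Genome 230 2.0 array, in arbitrary linear units scaled to the same mean on every array. A difference is the mean log2(signal + 14.15) of the cafeteria arrays minus that of the standard arrays, with its standard error (SE) and p from limma, adjusted by Benjamini-Hochberg over 18625 probesets. Array medians lay between 151 and 173, and all pairs of arrays correlated between 0.955 and 0.982. Of the islet hormone and beta cell markers, 13 of 18 were on the array, and all 13 were above the filter. Markers of acinar, duct, endothelial, stromal and blood cells were also above it, so the RNA was not that of endocrine cells alone. Lower signal from fewer cells of a type cannot be told apart from less RNA per cell.

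No member of the list passed the test at an adjusted p under 0.05, and the lowest adjusted p was 0.491, for Plin3. Of all tested probesets, 0 passed this threshold (0%), so nothing on these arrays was called. At an unadjusted p under 0.05, 0 of the 27 tested members were found, against 10.4% of all tested probesets (1941 of 18625, with 5.51% higher and 4.91% lower). The cafeteria value was the higher for 14 members and the lower for 13, close to the 51.4% of all probesets that were higher. The median difference over the 27 members was 0.0068, and over all tested probesets it was 0.0056. The largest differences in each direction were those of Plin3, −0.31, and Hsd17b12, 0.16.

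These arrays bounded the differences of most members fairly closely. The 95% interval lay within 0.5 log2 units of 0 on either side, a fold of 1.41, for 24 of 27 members (88.9%), and the same held for 68.3% of all tested probesets. The exceptions were the lipolysis members Plin3, Lpl and Lipe. Members were read from the brightest probeset of each gene. All tested probesets also include dimmer ones of the same genes and ones without a symbol, so these shares are not of like sets. An interval within 1 log2 unit, a fold of 2, was reached by 27 of 27 members and by 96.2% of all tested probesets. A p above the threshold does not show that the diets gave equal levels, and these intervals state which sizes the arrays allow.

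**Figure D1:**
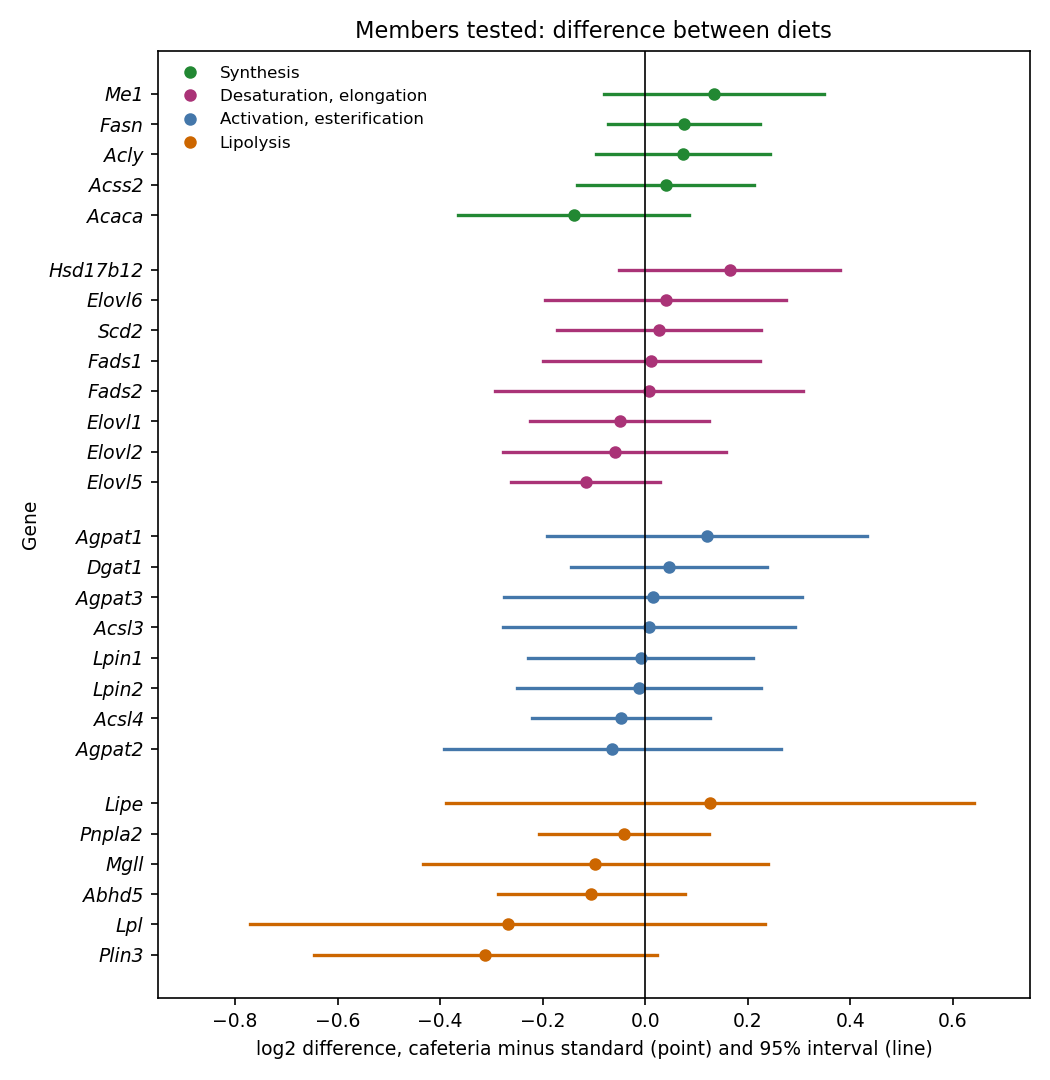
Each point is the log2 difference between the diets (cafeteria minus standard, x axis) of 1 tested member (y axis), and the line is its 95% interval from limma with 5 arrays in each group. All 27 intervals cross 0, and those of Lpl and Lipe are the widest.

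Among the enzymes of fatty acid synthesis, 4 of 5 tested members had the higher mean on cafeteria diet and 1 the lower, with a median difference of 0.074. Acly, ATP citrate lyase, which splits exported citrate into acetyl-CoA, gave 13621, 15688, 16060.4, 16394 and 15628 on the standard diet arrays 1 to 5 and 15248, 17175, 15693, 16286 and 17000.3 on the cafeteria diet arrays 1 to 5. Cafeteria arrays 2 and 5 lay above every standard array, standard array 1 lay below every cafeteria array, and the rest overlapped. The means were 15478 ± 1083 and 16280.5 ± 826 (SD, n = 5 each), a difference of 0.074 (SE 0.077) with a limma adjusted p of 0.739. Me1, cytosolic malic enzyme, a source of NADPH for chain building, gave 2427, 2468, 2339, 2719.6 and 2855 on the standard diet arrays 1 to 5 and 2366, 2729, 2809, 2969 and 3221 on the cafeteria diet arrays 1 to 5. Cafeteria arrays 4 and 5 were above the highest standard array, while cafeteria array 1 was near the lowest. Its difference was 0.13 (SE 0.098), with a 95% interval of −0.081 to 0.35 and a limma adjusted p of 0.63, the lowest among the synthesis genes.

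The remaining synthesis genes differed less or in the other direction. Fasn, fatty acid synthase, averaged 1628 ± 75.0 on standard and 1717 ± 57.6 on cafeteria diet (SD, n = 5 each), a difference of 0.076 (SE 0.067). Acss2, which makes acetyl-CoA from acetate, differed by 0.040 (SE 0.079). Acaca, the cytosolic acetyl-CoA carboxylase that makes malonyl-CoA, was the synthesis member with the lower mean on cafeteria diet, 839 ± 111 against 922 ± 74.2. Its difference was −0.14 (SE 0.10), with an interval of −0.36 to 0.086 and a limma adjusted p of 0.633. Acly, Fasn and Acaca, the enzymes that carry citrate carbon to palmitate, thus gave differences of mixed sign, each smaller than 1.5 of its standard errors.

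The stretch of genome just before the Acly start site is shown because Acly had the highest mean signal of the synthesis members tested. Sequences are RefSeq's, build GRCr8, for the 250.0 bases before the annotated start, and 25 of the 32 members read had an entry. Acaca, Fasn, Elovl6, Dgat1, Dgat2, Lpl and Lipe had none, so the motif counts below say nothing of these genes. Capitals mark the letters CCAAT (the NF-Y box), GGGCGG (a GC box) or CACGTG (an E-box), on either strand.
Acly, chr10:85963632-85963881, minus strand: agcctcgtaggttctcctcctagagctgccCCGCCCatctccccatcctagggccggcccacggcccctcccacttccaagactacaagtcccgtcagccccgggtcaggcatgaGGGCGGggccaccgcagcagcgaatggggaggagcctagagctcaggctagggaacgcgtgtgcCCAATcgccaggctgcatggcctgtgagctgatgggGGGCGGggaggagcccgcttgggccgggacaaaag
This window holds 1 CCAAT and 3 GGGCGG matches and no E-box. CCAAT was present in 14 of the 25 member windows (56.0%), against 36.1% of 27457 windows of all genes and 36.8% of 8632 windows of tested genes. GGGCGG was present in 16 (64.0%), against 33.5% of all and 61.6% of tested genes. The core of the sterol regulatory element, TCACNCCAC, was in 0 of 25, against 1.09% of all and 0.95% of tested genes. CACGTG was in 2 of 25 (8.0%), Elovl5 and Mgll, against 6.18% and 8.67%. None of these motifs contains another, though TCACNCCAC and CACGTG can share letters, and a match describes letters in a window and not a bound site.

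The desaturases and elongases were nearly evenly divided, with 5 of 8 tested members higher on cafeteria diet, 3 lower and a median difference of 0.0097. Scd2, a stearoyl-CoA desaturase that puts a double bond into saturated chains, had the highest mean signal of this step and gave 6123, 6489, 5891, 7228 and 6692 on the standard diet arrays 1 to 5 and 6170.1, 6921, 5983, 7581 and 6433 on the cafeteria diet arrays 1 to 5. The groups overlapped, with cafeteria array 4 the highest of all, and the difference was 0.028 (SE 0.090). Elovl5, an elongase of polyunsaturated chains, gave 2531, 2516, 2594, 2686 and 2705 on the standard diet arrays 1 to 5 and 2382, 2483, 2296, 2513 and 2347 on the cafeteria diet arrays 1 to 5. All 5 cafeteria values lay below all 5 standard values, although by only a few units between cafeteria array 4 and standard array 2. Read from brightest probesets, Elovl5 was the only tested member whose groups did not overlap. Of all tested probesets, 1.45% were separated in this direction and 0.988% in the other. The means were 2606 ± 86.7 and 2404 ± 91.8 (SD, n = 5 each), a difference of −0.12 (SE 0.066) with an interval of −0.26 to 0.029 and a limma adjusted p of 0.537. A second, dimmer tested probeset of Elovl5 had overlapping groups and a difference of −0.033 (SE 0.16), so the separation is that of the brightest probeset alone. The window before the Elovl5 start site is shown because of that separation. It holds 1 CACGTG and 2 CCAAT matches, the latter on the opposite strand and so printed as ATTGG.
Elovl5, chr8:87670914-87671163, plus strand: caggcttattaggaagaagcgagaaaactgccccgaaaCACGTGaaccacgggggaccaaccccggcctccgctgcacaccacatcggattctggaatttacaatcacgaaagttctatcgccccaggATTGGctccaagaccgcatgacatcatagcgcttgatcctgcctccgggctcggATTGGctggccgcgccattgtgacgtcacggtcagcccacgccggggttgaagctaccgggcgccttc

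Hsd17b12, a ketoacyl-CoA reductase of the elongation cycle, is given in full because its difference was the largest positive one, a choice made after its values were seen. It gave 3153, 3448, 2938, 3062 and 3336 on the standard diet arrays 1 to 5 and 3277, 3633, 3194, 3461 and 4394 on the cafeteria diet arrays 1 to 5. Cafeteria arrays 2, 4 and 5 were above every standard array, and cafeteria array 5 stood well apart from the others. The difference was 0.16 (SE 0.098), with an interval of −0.051 to 0.38 and a limma adjusted p of 0.552. Without cafeteria array 5 it was 0.090. Fads1 and Fads2, the desaturases of polyunsaturated chains, differed by 0.012 (SE 0.096) and 0.0076 (SE 0.14). Fads2 was the more scattered of the pair, with signals of 377 to 514 on standard diet and 360.5 to 617 on cafeteria diet. Elovl6, which lengthens palmitate, differed by 0.040 (SE 0.11), Elovl1, an elongase of long saturated chains, by −0.050 (SE 0.079), and Elovl2, a second elongase of polyunsaturated chains, by −0.060 (SE 0.099).

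Activation and esterification gave 4 of 8 tested members higher on cafeteria diet and 4 lower, with a median difference of −0.0011. Acsl4, an acyl-CoA synthetase that prefers arachidonate, had the highest mean signal of this step and gave 1751, 1936, 1701, 1934 and 2107 on the standard diet arrays 1 to 5 and 1835, 1709.6, 1791, 1893 and 1871 on the cafeteria diet arrays 1 to 5. Every cafeteria value lay inside the range of the standard values, and the difference was −0.048 (SE 0.079). Agpat1, which adds the second acyl chain to the glycerol backbone, had the lowest p of the step and gave 432, 589.5, 563, 614 and 746 on the standard diet arrays 1 to 5 and 569, 695, 524, 722 and 673 on the cafeteria diet arrays 1 to 5. Here too the cafeteria values lay within the standard range, and the difference was 0.12 (SE 0.14) with an interval of −0.19 to 0.43.

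Differences of the other tested esterification genes were small beside their errors. Acsl3, an acyl-CoA synthetase found on lipid droplets, differed by 0.0068 (SE 0.13). Agpat2 and Agpat3, enzymes of the same reaction as Agpat1, differed by −0.064 (SE 0.15) and 0.015 (SE 0.13). Lpin1 and Lpin2, phosphatidate phosphatases that yield diacylglycerol, differed by −0.0091 (SE 0.10) and −0.012 (SE 0.11). Dgat1, which adds the last acyl chain of triglyceride, averaged 711 ± 60.6 and 734 ± 55.5 (SD, n = 5 each), a difference of 0.047 (SE 0.087).

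Of the lipolysis members, 5 of 6 had the lower mean on cafeteria diet and 1 the higher, with a median difference of −0.10. Of all tested probesets, 9047 of 18625 were lower. The count of 5 takes Mgll from its brightest probeset, while the other tested probesets of Mgll gave 0.19 and 0.18. Plin3, a coat protein of lipid droplets, had the lowest p of the whole list and gave 312, 182, 265, 214 and 304 on the standard diet arrays 1 to 5 and 175, 227, 235, 174 and 191 on the cafeteria diet arrays 1 to 5. Standard arrays 1, 3 and 5 were above every cafeteria array, cafeteria arrays 1 and 4 were below every standard array, and standard arrays 2 and 4 lay among the cafeteria values. The means were 255 ± 56.3 and 200.4 ± 28.8 (SD, n = 5 each), a difference of −0.31 (SE 0.15) with an interval of −0.65 to 0.022 and a limma adjusted p of 0.491. The lymphocyte marker index, a mean log2 signal, was 9.22, 6.87, 9.11, 7.74 and 9.39 on standard arrays 1 to 5. On cafeteria arrays 1 to 5 it was 7.02, 6.99, 8.58, 6.93 and 7.12. Standard arrays 1, 3 and 5 were thus highest for both Plin3 and this index. The index differed by −1.14 (exact two-sided permutation p = 0.0873, adjusted 0.436), and its part in the Plin3 values was not tested. With the GAPDH 3′ to 5′ signal ratio, a measure of RNA integrity, as a covariate the Plin3 difference was −0.092. That ratio had a mean log2 of 0.21 on standard and 0.0084 on cafeteria diet. Its exact two-sided permutation p was 0.0238, adjusted over 11 RNA quality and marker measures 0.262. The actin 3′ to 5′ ratio, the other such measure, differed by −0.089 (exact two-sided permutation p = 0.405, adjusted 0.557). It was not used as a covariate. Because the GAPDH ratio partly followed the diet, a fit with both cannot fully separate them.

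Lpl, the lipoprotein lipase that frees fatty acids at the capillary wall, had the highest mean signal among the lipolysis members and gave 1511, 1367, 1651, 1446 and 1231 on the standard diet arrays 1 to 5 and 1339.7, 1599, 1747, 921 and 685 on the cafeteria diet arrays 1 to 5. Cafeteria array 3 was above every standard array and cafeteria arrays 4 and 5 were below every one, so the cafeteria group spanned the standard group on both sides. The difference was −0.27 (SE 0.23), with an interval of −0.77 to 0.23 and a limma adjusted p of 0.683. It was −0.073 without cafeteria array 5, −0.18 without cafeteria array 4 and −0.41 without cafeteria array 3. The macrophage marker index, a mean log2 signal, was 8.44, 7.85, 8.55, 8.28 and 8.70 on standard arrays 1 to 5 and 7.86, 7.97, 8.95, 7.89 and 8.28 on cafeteria arrays 1 to 5. The highest index and the highest Lpl were both on cafeteria array 3, while among the standard arrays the highest index was on array 5, where Lpl was lowest. The summed signal of the 15 macrophage markers on the array, 12 of them above the filter, ran from 3751 to 9667 on standard and from 3749 to 13460.4 on cafeteria diet. No macrophage marker was at 0, and the part of these cells in the Lpl values was not tested. The acinar marker index was 9.79, 9.36, 9.08, 9.03 and 10.2 on standard arrays 1 to 5. Cafeteria arrays 1 to 5 gave 8.79, 8.78, 8.06, 10.1 and 9.81. Of the cafeteria arrays, 4 and 5 had the highest index and the lowest Lpl. Standard array 5 also had the highest index and lowest Lpl of its group, while standard array 1 was above its group mean in both. The acinar index differed by −0.39 (exact two-sided permutation p = 0.405, adjusted 0.557), and its part was not tested.

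Lipe, hormone-sensitive lipase, was the lipolysis member with the higher mean on cafeteria diet, and it is given in full, after its values were seen, because it had the widest interval of the list. It gave 183, 261, 391, 368 and 325 on the standard diet arrays 1 to 5 and 525, 311, 344, 252 and 250.2 on the cafeteria diet arrays 1 to 5. Cafeteria array 1 was above every standard array and standard array 1 was below every cafeteria array, with the other arrays mixed. The difference was 0.13 (SE 0.23), with an interval of −0.39 to 0.64, and it was −0.036 without standard array 1 and −0.041 without cafeteria array 1. Pnpla2, adipose triglyceride lipase, which takes the first acyl chain from triglyceride, differed by −0.041 (SE 0.076), with an interval of −0.21 to 0.12. Abhd5, the protein that activates Pnpla2, differed by −0.10 (SE 0.083), and Mgll, which cleaves the last acyl chain from glycerol, by −0.097 (SE 0.15).

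Fat cell markers were measured beside these lipases, since adipocytes carry them at high levels. The summed signal of the 12 adipocyte markers on the array ran from 1642 to 1931 on standard and from 1310.1 to 1627 on cafeteria diet, so the groups did not overlap. Most of this sum was 1 gene, Fabp4, which averaged 1064 ± 145 on standard and 919 ± 153 on cafeteria diet (SD, n = 5 each) and whose own groups overlapped. Only 3 of the 12 were above the filter (Fabp4, Plin4 and Tmem120b) and no marker was at 0. Of the defining markers below it, Adipoq averaged 58.7 on standard and 43.0 on cafeteria diet and Lep 27.5 and 15.4, while Plin1 averaged 37.1 and 45.9 and Cidec 5.88 and 10.5. The index is the mean log2 signal of Fabp4, Plin4 and Tmem120b and leaves these defining markers out. It differed by −0.15 (exact two-sided permutation p = 0.198). With this index as a covariate, the median of the lipolysis members was −0.15, with Lipe then at −0.033, Pnpla2 at 0.014, Lpl at −0.17 and the other 3 lower. With the GAPDH ratio in the model instead, the median was −0.11, Lpl was at −0.46, and Lipe was the member that was higher.

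**Figure D2:**
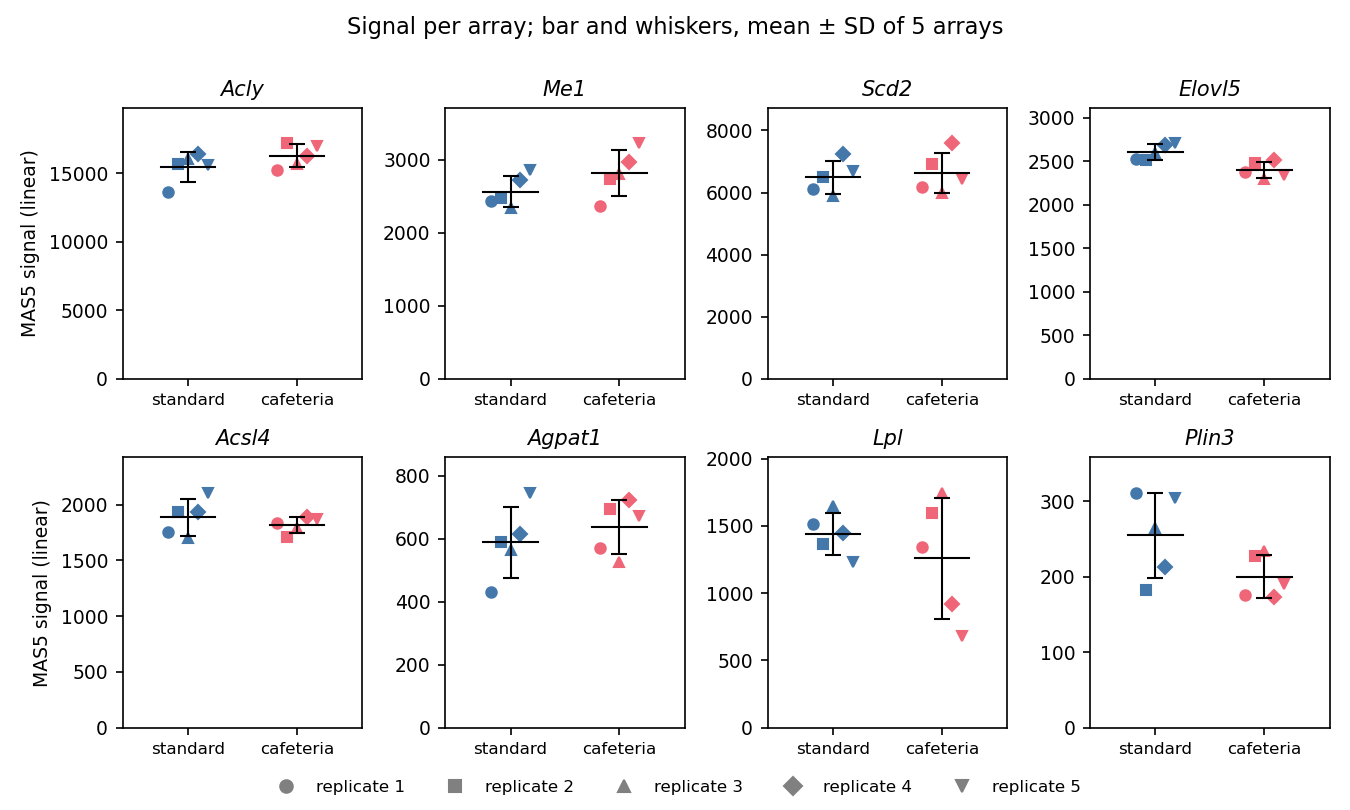
Each panel plots the MAS5 signal (y axis, linear, arbitrary units) of 1 member on the 5 standard and 5 cafeteria arrays as points, with a bar for the mean of each group and its SD as the error bar. The groups are apart in Elovl5 and overlap in the other members drawn, and the cafeteria values of Lpl run from 685 to 1747.

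A further 5 members had a probeset whose mean log2 value over 10 arrays lay below the level needed for testing, which corresponds to a signal of 94.8, and are given as levels only. Acacb, the acetyl-CoA carboxylase of the mitochondrial surface, averaged 28.5 ± 12.1 on standard and 12.2 ± 10.4 on cafeteria diet (SD, n = 5 each). Thrsp, a protein tied to lipogenesis in liver and fat, averaged 45.8 ± 19.5 and 71.0 ± 29.0, and Scd, the other stearoyl-CoA desaturase, 86.1 ± 35.1 and 57.6 ± 19.9. Gpam, the mitochondrial enzyme that adds the first acyl chain to glycerol phosphate, averaged 80.0 ± 24.6 and 97.9 ± 16.9. Dgat2, the second enzyme of the final triglyceride step, averaged 84.4 ± 27.5 and 84.1 ± 22.9. These probesets are among the dimmest 40% on the array, and no direction is read from them.

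The extreme values were spread over the arrays. The array that was most often the highest of its group was cafeteria array 3, for 10 of 27 members, and the one most often the lowest was standard array 1, for 9. Standard array 4 was highest for 8 members and lowest for 1. Lpl on cafeteria array 5 was the value farthest from the standard mean, 1.05 log2 units below it.

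**Figure D3:**
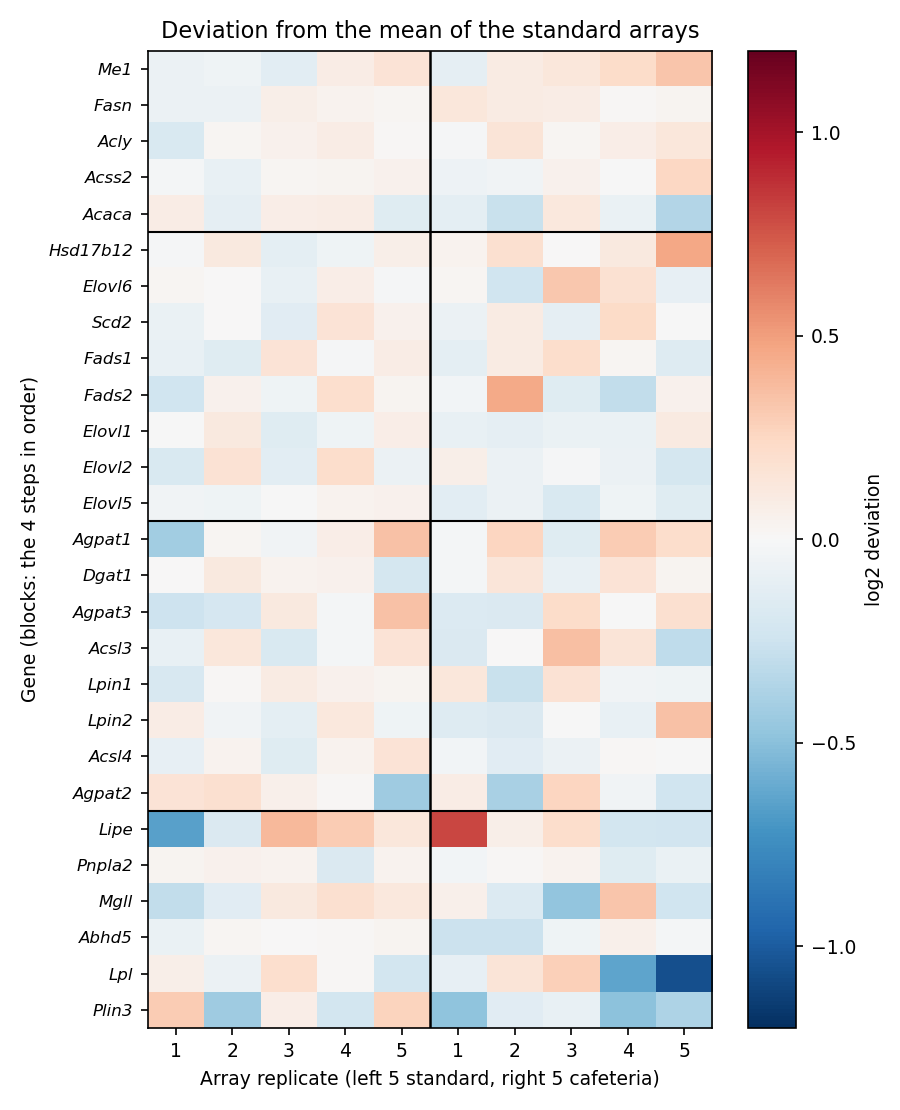
Each cell is the log2 signal of 1 tested member (row) on 1 array (column) minus the mean of that member over the 5 standard arrays, with blue below and red above 0. No column is of a single colour, and the strongest cells are those of Lpl on cafeteria arrays 4 and 5 and of Lipe.

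The array reads several members more than once. Of 57 probesets annotated to members alone, 40 were tested, and 13 of these were not the brightest of their gene. Among these 13, 3 had an unadjusted p under 0.05, all with the higher mean on cafeteria diet, beside 5.51% of all tested probesets in that direction. The second probeset of Agpat1 gave 339, 625, 449.6, 548 and 554 on standard arrays 1 to 5 and 798, 769, 593, 639 and 641 on cafeteria arrays 1 to 5. All but 1 cafeteria value lay above every standard value, and the difference was 0.46 (SE 0.16) with an interval of 0.12 to 0.81 and a limma adjusted p of 0.412. A second probeset of Agpat3 gave 337, 372, 343, 414 and 348 on standard and 400.1, 526, 424, 447 and 456 on cafeteria arrays, with 4 cafeteria values above every standard value. Its difference was 0.30 (SE 0.092), with a limma adjusted p of 0.401.

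The second probeset of Lipe gave 184, 113, 153, 151 and 175 on standard and 137, 224, 194, 275 and 235 on cafeteria arrays. Its difference was 0.41 (SE 0.17), with an interval of 0.027 to 0.79 and a limma adjusted p of 0.46. For Agpat1, Agpat3 and Lipe the brightest probeset gave a smaller difference of the same sign. Among the 10 members with more than 1 tested probeset, 4 had probesets of opposite sign: Fasn, Elovl6, Lpin1 and Mgll. Mgll read −0.097 from its brightest probeset and 0.19 and 0.18 from the others. Elovl6 read 0.040 and −0.11. The direction of these 4 genes is therefore not settled by the array.

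**Figure D4:**
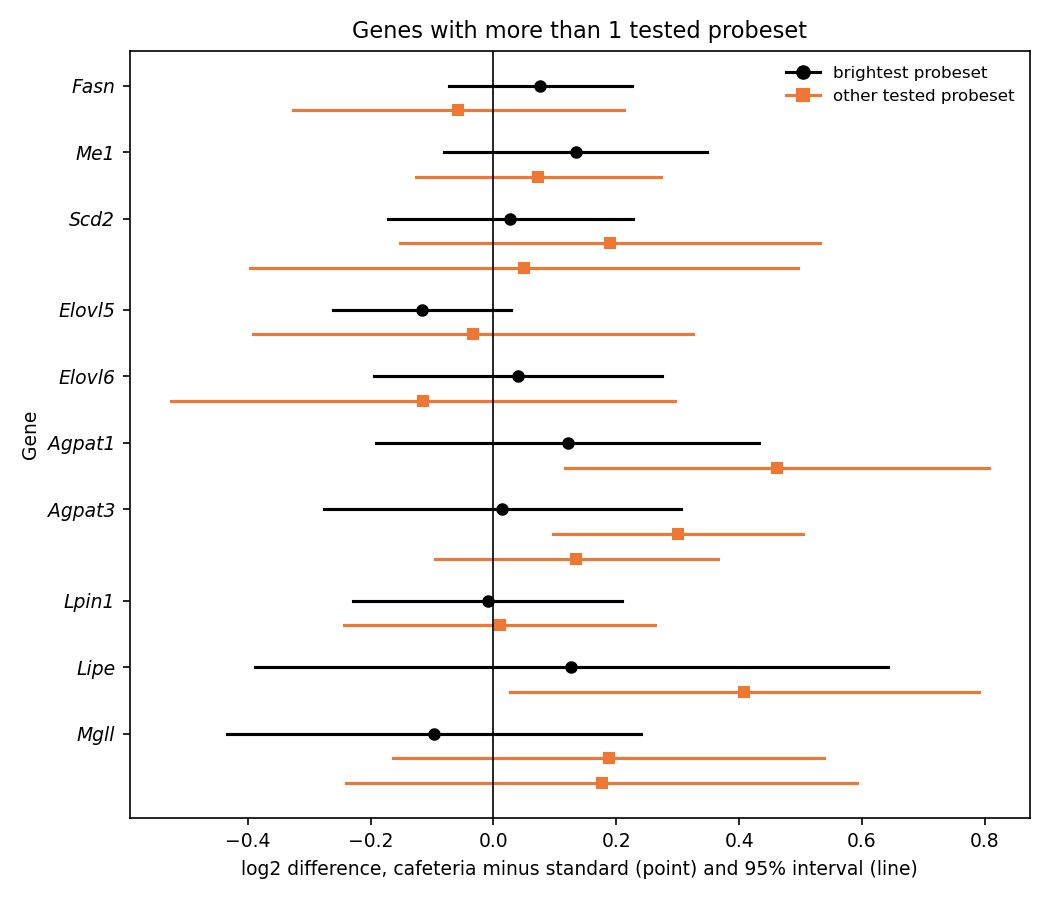
For the 10 members with more than 1 tested probeset (y axis), black points are the log2 difference (cafeteria minus standard, x axis) from the brightest probeset and orange squares those from the others, with 95% limma intervals as lines. The orange intervals of Agpat1, Lipe and 1 of those of Agpat3 lie above 0, while the black interval of each of these genes crosses it.

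Other genes of the pathway, 128 in 5 lists, had 116 members on the array and 90 tested. None had an adjusted p under 0.05, and at an unadjusted p under 0.05 there were 13, with 8 higher and 5 lower on cafeteria diet, beside the 10.4% of all probesets. The diet groups did not overlap for 3 of the 90 with cafeteria above (Mlxipl, Me3 and Acsl5), beside 0.988% of all tested probesets. With cafeteria below there were 2 (Fabp5 and Pnpla8), beside 1.45%. Of the 27 tested regulators, 11 were higher and 16 lower, and 4 had an unadjusted p under 0.05. Mlxipl, the glucose-responsive factor ChREBP that drives lipogenic genes, averaged 753 ± 64.2 on standard and 977 ± 51.9 on cafeteria diet (SD, n = 5 each) with no overlap. Its difference was 0.37 (SE 0.082), with a limma adjusted p of 0.398. Usf2, an E-box binding factor, differed by −0.36 (SE 0.10), Prkag1, a subunit of AMP-activated kinase, by 0.20 (SE 0.082), and Insig1, which holds the SREBP complex in the endoplasmic reticulum, by 0.39 (SE 0.16). Insig1 is outside the rule of 3 genes a list and is named to complete the count. Srebf1, which encodes the lipogenic SREBP factor and was picked after its value was seen, differed by −0.028 (SE 0.085).

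Genes that supply citrate, acetyl-CoA and NADPH had 9 of 12 tested members higher and 3 lower, with a median difference of 0.090 and 2 at an unadjusted p under 0.05. These were Me3, the mitochondrial malic enzyme that uses NADP, at 0.44 (SE 0.12) with no overlap between the groups, and Mdh1, cytosolic malate dehydrogenase, at 0.29 (SE 0.12). Their limma adjusted p values were 0.398 and 0.444. The acyl chain list had 12 higher and 9 lower of 21 tested, and its member at an unadjusted p under 0.05 was Acsl5, an acyl-CoA synthetase, at 0.30 (SE 0.096), also without overlap. The esterification list had 6 higher and 5 lower of 11, with Gk, glycerol kinase, at −0.46 (SE 0.16), Ctdnep1, a phosphatase that activates lipins, at 0.40 (SE 0.15), and Mboat7, which acylates lysophosphatidylinositol, at 0.25 (SE 0.094).

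Among the other droplet and lipolysis genes, 16 of 19 tested had the lower mean on cafeteria diet and 3 the higher, beside 9047 of 18625 tested probesets lower. Their median difference was −0.16, against 0.0056 over all probesets. Without cafeteria array 5 the count was 12 of 19. Fabp5, a fatty acid carrier of the cytosol, averaged 547 ± 78.7 on standard and 388 ± 31.4 on cafeteria diet (SD, n = 5 each), with no overlap and a difference of −0.47 (SE 0.11). Pnpla8, a calcium-independent phospholipase, averaged 3221 ± 149 and 2656 ± 281, also without overlap, a difference of −0.28 (SE 0.088). G0s2, an inhibitor of Pnpla2, differed by −0.26 (SE 0.11). The limma adjusted p was 0.398, 0.407 and 0.469 in turn, so none passed. This list shares Fabp4, Plin1, Plin4, Cidea and Cidec with the adipocyte markers, and Fabp4 is the gene that makes up most of their summed signal.

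**Figure D5:**
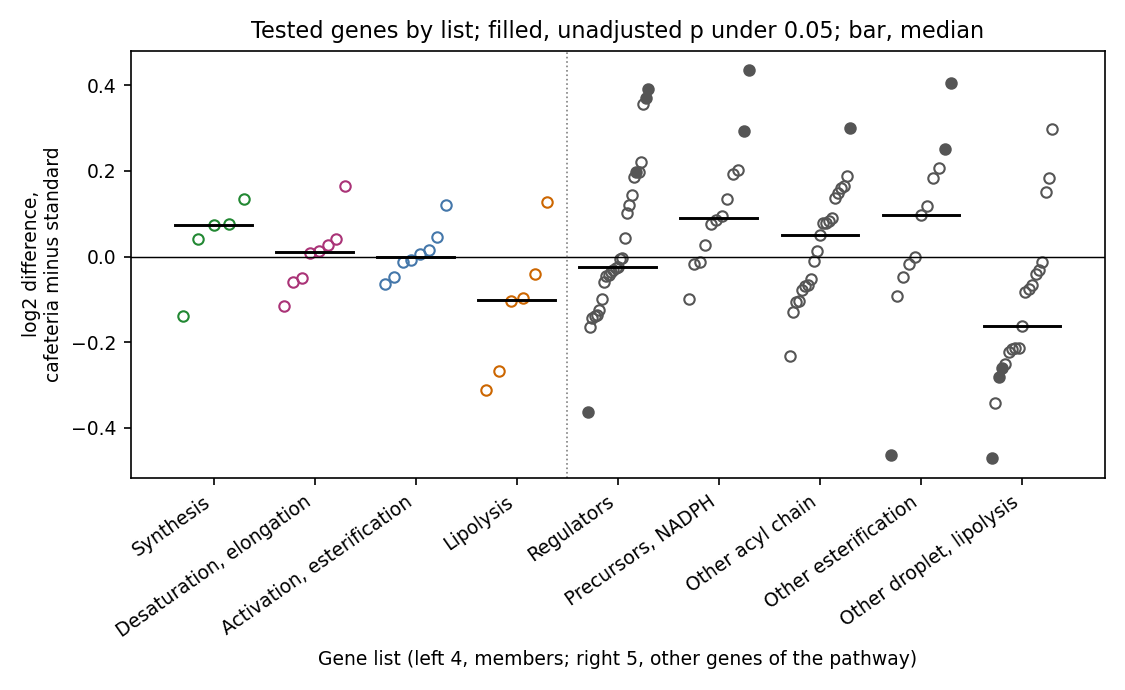
Each point is the log2 difference (cafeteria minus standard, y axis) of 1 tested gene, for the 4 steps of the list on the left and the 5 lists of other pathway genes on the right, filled where the unadjusted p is under 0.05, and the bar is the median of each list. The medians of the lipolysis members and of the other droplet and lipolysis genes, −0.10 and −0.16, are the lowest, and the remaining medians lie between −0.024 and 0.098.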

How the data were processed

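Total RNA of 10 islet samples, 5 a diet, was read on 1-colour Affymetrix Rat Genome 230 2.0 arrays. The deposited values are linear signal intensities, summarised with MAS5 per the submitters' processing notes (version not given in the sources used here). After trimming 2% at each end, every array had a mean between 500.14 and 500.16, so the arrays were already scaled. No detection calls were used, and the number of arrays limits the precision.

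Signals were taken as log2(value + 14.15), the 10th percentile being the pseudocount, so folds of dim genes come out too small. Of 31042 probesets that are no controls, those whose mean log2 signal exceeded the 40th percentile entered the fit. The model was limma's (version 3.58.1, under R 4.3.3; functions lmFit and eBayes) with the diet as its single term, and with Benjamini-Hochberg adjustment over 18625 probesets and a threshold of 0.05. The fit had 8 residual and 3.11 prior degrees of freedom, and the script was tested on simulated data. Each gene was read from its brightest probeset with 1 symbol in the platform annotation (20826 probesets had 1 symbol, 436 several and 9780 none). Marker indices are mean log2 values per array over markers above the filter, compared by an exact two-sided permutation test over 252 divisions of the arrays, whose smallest p is 0.00794.

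The members and gene lists were chosen with earlier results of these data known. Values on every array are given for members with an unadjusted p under 0.05 (there were 0), and in each step for the tested member of lowest p and the one of highest mean. Of other pathway genes, at most 3 of lowest p in a list have values, apart from those named as exceptions. Alternatives covered the pseudocount, the filter, normalization, variance model, array weights, covariates, probeset averaging, a replicate block and each array left out.

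Replicate numbers are shared between the diets. The correlation of deviations of same-numbered arrays from their group means ran from −0.0017 to 0.30, and 5 of 10 arrays correlated best with the array of their own number. Whether same-numbered arrays belong together is not settled by these values. The main fit treated the islet samples as independent and did not pair them, and a fit with the number as a block is given at the end.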

Additional observations from a re-analysis of the deposited data

Results flagged for a closer look

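A single array stood apart from the other 4 of its group, by Dixon's test at 95%, in 7 of 86 sets of values tested, while chance gives about 1 in 20, or 4.3 here. Values are log2 signals or, for cell markers, indices. Acly on standard array 1 was the lowest at 13.74, the others being 13.93 to 14.00. Lpin1 was lowest on the same array at 9.37 (others 9.58 to 9.66), and so was Abhd5 at 9.27 (others 9.35 to 9.38). Pnpla2 was lowest on standard array 4 at 8.92 (others 9.13 to 9.15). Elovl1 was highest on cafeteria array 5 at 10.31 (others 10.10 to 10.13). The lymphocyte marker index was highest on cafeteria array 3 at 8.58 (others 6.93 to 7.12), and the endothelial index on standard array 5 at 10.23 (others 9.92 to 9.96).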

How the results depend on the processing

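The members were recomputed under 22 alternatives, including 10 fits with an array omitted. Of the 586 values this gave, 530 agreed in sign and call with those reported, 56 had the opposite sign and 0 gained a call. The cause of these turns was not tested. Members at an unadjusted p under 0.05 became 1 lower without a filter (Acacb, −0.73) and with quantile normalization (Plin3, −0.34), and 1 higher with all probesets of a gene averaged (Lipe, 0.27), with 0 to 1 lower when an array was left out (Plin3, without standard array 2 or 4 or without cafeteria array 3). Acacb is 1 of the dim members, with a mean signal of 20.4 beside a pseudocount of 14.15, and no direction is read from it. Probesets past the threshold numbered 0 to 1 when an array was left out, the 1 being Emp1 without standard array 2. Adding the GAPDH ratio to the model gave a median of −0.050 over all members and −0.050 over desaturation and elongation, and adding the adipocyte index gave 0.020 over synthesis. With the filter at the 70th percentile, 3 lipolysis members and 10 other droplet and lipolysis genes remained lower, of the 3 and 11 then tested.

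Values that turned were as follows. Quantile normalization gave Fads2 −0.012, array weights Fads2 −0.016, and median centring Fads1 −0.00023, Fads2 −0.0045 and Acsl3 −0.0052. The GAPDH covariate gave Scd2 −0.048, Fads1 −0.0074, Fads2 −0.052, Elovl6 −0.041, Acsl3 −0.28 and Lpin2 0.14. The adipocyte covariate gave Acss2 −0.0078, Scd2 −0.025, Fads1 −0.014, Fads2 −0.065, Agpat2 0.035, Agpat3 −0.097, Lipe −0.033 and Pnpla2 0.014. Averaging probesets gave Acaca 0.083, Elovl6 −0.037, Lpin1 0.00043 and Mgll 0.18. Leaving out each array in turn gave ranges of −0.081 to 0.086 for Acsl3, −0.011 to 0.064 for Acss2, −0.17 to 0.018 for Agpat2, −0.047 to 0.10 for Agpat3, −0.0070 to 0.080 for Dgat1, −0.032 to 0.11 for Elovl6, −0.038 to 0.054 for Fads1, −0.10 to 0.084 for Fads2, −0.041 to 0.22 for Lipe, −0.058 to 0.056 for Lpin1, −0.10 to 0.027 for Lpin2 and −0.023 to 0.068 for Scd2. The endothelial index ran from −0.018 to 0.095 and the stromal index from −0.0014 to 0.089.

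With the replicate number as a block, 0 probesets passed the threshold and 2349 had an unadjusted p under 0.05, against 1941 without it, and 5 of 10 arrays correlated best with the array of their own number. With 5 arrays a diet, small differences were not detectable. The printed intervals are not adjusted for the number of probesets. A difference whose interval left out 0 could still miss the threshold, as that of Mlxipl did (interval 0.19 to 0.55). For the 5 dim members no bound is given.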
